A study of Mus musculus with 32 samples.

Results

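The genes described here are 38 components of Toll-like receptor signalling and of its adaptor Myd88, chosen by name as sensors, co-receptors, adaptors, kinases and brakes of the pathway, in mouse tumour-associated macrophages. Of these, 32 have a probe set that names them alone on the HT_MG-430_PM array, among 17097 genes, and 33 on the Mouse Gene 2.0 ST array, among 22180 genes. 31 of them are on both arrays. Irak4, Traf3, Chuk and Il1rl1 have such a probe set on neither array, Tlr13 and Ticam2 only on the Mouse Gene 2.0 ST array, and Irf5 only on the HT_MG-430_PM array. Each gene is given by its probe set of highest mean, and all values are log2 signals. Signals of different probe sets depend on their probes, so levels are compared between arrays and not between genes.

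The study measured 32 arrays in 3 experiments, each from 100 ng of total RNA. In the first, CD11b+ cells were enriched with magnetic beads from 3 neuroblastomas, which arise spontaneously in the peritoneum of Th-MYCN transgenic mice, and from 3 EG7 thymomas transplanted into wild-type (WT) mice. In the second, the same enrichment was applied to EG7 tumours from 5 WT hosts and 5 Myd88-/- hosts, which lack Myd88 in every host cell. In the third, EG7 tumours were sorted by flow cytometry into population A (CD11b+, Ly6G-, Ly6C+, MHCII-) and population C (CD11b+, Ly6C-, MHCII+), with 2 arrays of each population for each of 4 host genotypes. The hosts were WT, lacked TNFR1 (TNFR1-/-), had Myd88 deleted by Tie2-Cre (Myd88flox/flox;Tie2-Cre), or carried both changes (TNFR1-/-;Myd88flox/flox;Tie2-Cre). TNFR1, encoded by Tnfrsf1a, is a receptor for tumour necrosis factor. Tie2-Cre is active in endothelium and in blood-forming cells, so its deletion of Myd88 is not confined to macrophages. TNFR1-/- hosts lack the receptor in all host cells, while the transplanted EG7 line, a thymoma line that carries ovalbumin, keeps both genes. Th-MYCN mice carry the MYCN oncogene under the tyrosine hydroxylase promoter, which is active in the sympathetic lineage. No label states the age of the hosts or that each array is a different animal, so the p-values reflect only how far these samples spread, part of which may be technical. A glioma set named in the study design was not analysed here.

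Toll-like receptors are membrane sensors of microbial and damage-derived molecules. Tlr1, Tlr2, Tlr4, Tlr5 and Tlr6 act mainly at the cell surface, while Tlr3, Tlr7, Tlr8, Tlr9, Tlr12 and Tlr13 act in endosomes, mostly as sensors of nucleic acids, which they reach with the chaperone Unc93b1. Most of them, and the receptors for interleukin-1 and interleukin-18, signal through Myd88, which gathers the Irak kinases and the ubiquitin ligase Traf6. Traf6 activates Map3k7 (TAK1) with its partners Tab1 and Tab2. Through the kinases Ikbkb and Chuk, with their regulatory subunit Ikbkg, this releases NF-kB. Tlr3 and part of Tlr4 signalling use Ticam1 (TRIF), with Ticam2 (TRAM) as a bridge to Tlr4. Irak3 (IRAK-M), Tollip and Sigirr restrain the pathway.

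5 upstream sequences show the 250 bases before the listed start of the genes on which the results below turn: Myd88 is the deleted gene, Irak3 and Tlr2 had lower signals in knockout hosts, Cd36 was higher in population A after Myd88 deletion, and Tlr8 is the Toll-like receptor with the widest gap between A and C. They come from RefSeq (GRCm38.p6), which held an entry for 28 of the 38 genes, and are written 5′ to 3′ in lower case with motif matches in capitals. The motifs were searched on both strands. The first was GGG, any 2 bases and TTTCC, and the second GGG, any 2 bases and TTCCC, both forms of the NF-kB site. The third was GAAA, any 2 bases and GAAA, a form of the interferon-stimulated response element.
Myd88, chr9:119340019-119340268, minus strand: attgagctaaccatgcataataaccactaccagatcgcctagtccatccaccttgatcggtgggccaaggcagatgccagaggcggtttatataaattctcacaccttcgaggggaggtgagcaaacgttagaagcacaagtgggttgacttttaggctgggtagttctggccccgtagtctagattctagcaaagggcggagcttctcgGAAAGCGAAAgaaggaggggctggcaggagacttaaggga
Tlr2, chr3:83841609-83841858, minus strand: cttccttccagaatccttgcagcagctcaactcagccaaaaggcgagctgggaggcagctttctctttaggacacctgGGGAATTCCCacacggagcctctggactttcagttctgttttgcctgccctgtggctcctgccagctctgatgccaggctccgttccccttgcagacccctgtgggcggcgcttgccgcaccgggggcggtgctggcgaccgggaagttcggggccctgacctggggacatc
Irak3, chr10:120201598-120201847, minus strand: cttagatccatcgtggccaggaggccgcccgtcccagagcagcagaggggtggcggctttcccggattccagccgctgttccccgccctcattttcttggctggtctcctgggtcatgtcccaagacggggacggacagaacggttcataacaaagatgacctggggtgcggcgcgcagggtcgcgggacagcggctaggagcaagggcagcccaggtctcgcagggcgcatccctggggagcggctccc
Cd36, chr5:17835897-17836146, minus strand: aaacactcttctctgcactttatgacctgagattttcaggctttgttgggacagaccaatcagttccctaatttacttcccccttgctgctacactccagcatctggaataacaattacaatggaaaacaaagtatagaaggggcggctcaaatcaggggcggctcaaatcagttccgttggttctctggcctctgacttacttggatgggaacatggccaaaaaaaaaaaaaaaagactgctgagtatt
Tlr8, chrX:167264330-167264579, minus strand: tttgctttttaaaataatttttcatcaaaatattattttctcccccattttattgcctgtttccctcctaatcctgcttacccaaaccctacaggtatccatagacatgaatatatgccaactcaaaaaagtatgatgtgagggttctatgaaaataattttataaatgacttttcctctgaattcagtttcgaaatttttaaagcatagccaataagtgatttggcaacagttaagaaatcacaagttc
Tlr2 held GGGAATTCCC at position -172, which reads the same on both strands and was counted once. Myd88 held GAAAGCGAAA at position -40. The windows printed for Irak3, Cd36 and Tlr8 held none of the 3 motifs. Among 32851 promoters of this length, the first was found in 1.41%, the second in 1.53% and the third in 2.98%. Map3k7, Tlr3 and Traf3 held the first, Tlr2 the second, and Myd88 and Tlr6 the third. These are matches of letters only, and the arrays do not measure binding.

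Most components of the pathway were measured above background in every group. A gene was counted as above background where its signal exceeded the 90th percentile of a list of genes that myeloid cells do not make, on every array of the group. By that rule 27 of 32 genes were above background in neuroblastoma, 29 of 32 in each EG7 group of the bead-enriched experiments, 29 to 30 of 33 in the population C groups and 25 to 26 of 33 in the population A groups. With the 40th percentile of all probe sets as the limit, 31 to 33 genes passed in each group. All 32 and 33 genes passed the filter on low values and were tested.

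Among the surface sensors, Tlr1, Tlr2, Tlr4 and Tlr6 were above background on every bead-enriched array. In the 5 WT hosts of the Myd88 experiment, Tlr2, the sensor of bacterial lipoproteins, ranged from 10.79 to 11.13 and its partners Tlr1 and Tlr6 from 8.14 to 8.71 and from 6.77 to 7.24. Tlr4, the endotoxin sensor, ranged from 6.72 to 7.04. Its accessory proteins Cd14 and Ly96 (MD-2) ranged from 12.74 to 12.87 and from 6.99 to 7.36. The flagellin sensor Tlr5 was not above background on all of these arrays, but it was on all 16 sorted arrays, where it ranged from 6.17 to 7.53. The arrays carry different probes and the cells were prepared differently, and the part of each was not tested.

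Of the endosomal sensors, Tlr3 and Tlr7 were above background on every bead-enriched array, and Tlr8 was in the Myd88 experiment, at 4.15 to 4.50 in WT hosts. Tlr9, the sensor of CpG DNA, stayed at 2.67 to 3.17 over the 10 arrays of the Myd88 experiment, close to the background genes. On the 16 sorted arrays it was above background throughout, from 7.34 to 9.14, as was Tlr13, the sensor of bacterial ribosomal RNA, from 7.52 to 8.68. Tlr12 exceeded background on every array of no bead-enriched group and of no group of population A. Unc93b1 ranged from 8.59 to 9.02 in the WT hosts of the Myd88 experiment and from 8.75 to 10.41 over the sorted arrays.

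All adaptors and kinases on the HT_MG-430_PM array were above background in its 4 groups, as were the brakes Irak3, Tollip and Sigirr. In WT hosts of the Myd88 experiment, Irak1, the kinase that leaves the receptor complex to engage Traf6, held to 8.31 to 8.33. Tab2 ranged from 9.45 to 9.73, Ikbkb from 8.33 to 8.45, Ikbkg from 6.30 to 6.39 and Tollip from 7.74 to 7.98. The transcription factor Irf5 ranged from 7.46 to 7.72, and Irf7, which drives type I interferon genes, from 5.18 to 6.64. On the sorted arrays Tirap, the bridge between Myd88 and Tlr2 or Tlr4, did not exceed background in all arrays of any group and ranged from 5.50 to 6.06. Sigirr (4.68 to 5.11) and Il18r1 (5.20 to 5.68), the ligand-binding chain of the interleukin-18 receptor, were below background on every sorted array.

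Myd88 has 1 probe set on each array, 1419272_PM_at on the HT_MG-430_PM array and 17532137 on the Mouse Gene 2.0 ST array. In the bead-enriched cells the 5 WT hosts gave 8.57, 8.37, 8.44, 8.37 and 8.11, and the 5 Myd88-/- hosts gave 7.60, 7.69, 7.53, 7.83 and 7.47. In population A, Myd88 was 10.03 and 9.64 in WT hosts, 9.68 and 9.46 in TNFR1-/- hosts, 7.84 and 7.70 in Myd88flox/flox;Tie2-Cre hosts, and 7.78 and 8.32 in hosts with both changes. In population C the same 4 genotypes gave 9.78 and 9.22, then 9.72 and 10.05, then 7.49 and 7.53, and then 8.76 and 7.97. Every array from a host with Myd88 deleted lay below every array with Myd88 intact in its experiment and population. Signal remained above background in all knockout arrays. The sources used here do not say whether the probe sets lie in the deleted exons, so the size of the drop does not measure how complete the deletion was, and the RNA of other cells, EG7 cells among them, was not told apart.

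**Figure D1:**
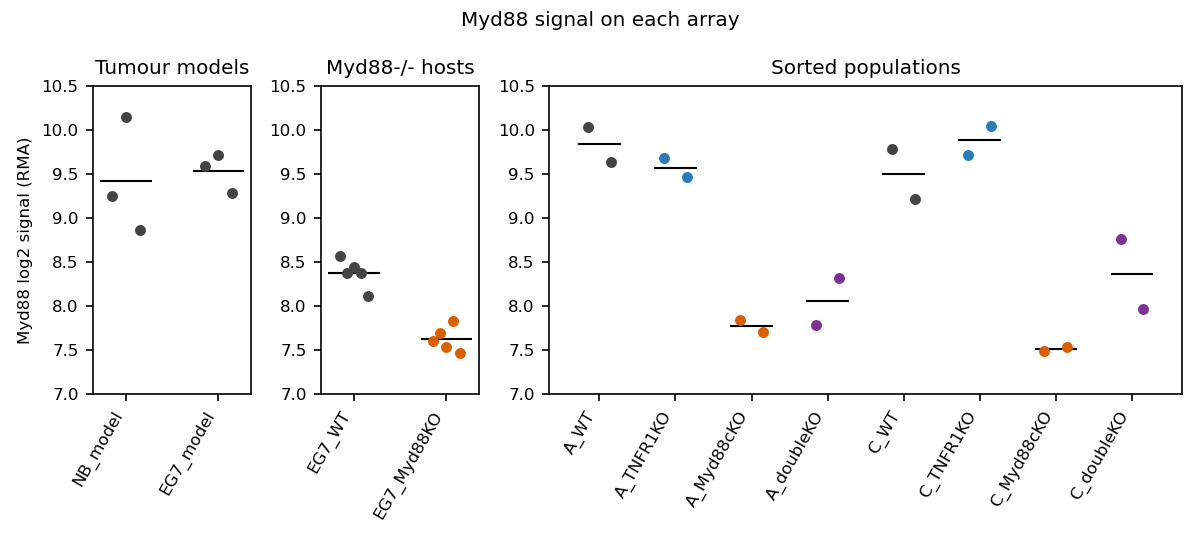
Log2 RMA signal of Myd88 on each array, in panels for the tumour models, the Myd88-/- hosts and the sorted populations (cKO, Myd88flox/flox;Tie2-Cre; doubleKO, TNFR1-/-;Myd88flox/flox;Tie2-Cre). Points are arrays and black bars are group means. The 5 Myd88-/- arrays lie between 7.47 and 7.83, below the 5 WT arrays at 8.11 to 8.57.

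Loss of Myd88 in all host cells was accompanied by lower signals of Myd88 itself, of the brake Irak3 and of the kinase Map3k8 (TPL2), which links the pathway to ERK signalling. The comparison addresses which genes differ in CD11b-enriched cells of EG7 tumours when all host cells lack Myd88. By limma's moderated test with adjusted p under 0.05, 3 of the 32 genes were lower and 0 higher in Myd88-/- hosts, where 1.48% of 11916 genes tested were called, 1.22% of all being lower and 0.26% higher. The median difference over the 32 genes was -0.06, against 0.01 over all genes. 6 of the 32 had groups that did not overlap (Tlr2, Tlr4, Myd88, Irak1, Irak3 and Map3k8), against 3.03% of all genes. Both counts include Myd88, the deleted gene.

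Irak3 was 6.38, 6.44, 6.29, 6.32 and 6.08 in WT hosts and 4.97, 5.79, 5.50, 4.95 and 5.56 in Myd88-/- hosts. The groups did not overlap, and the 5 Myd88-/- arrays spread more widely than the 5 WT arrays. Irak3 fell by 0.95 on the log2 scale (limma, SE 0.15, adjusted p = 0.00816), and a second probe set of the gene gave -0.70. Map3k8 was 7.64, 7.87, 7.78, 7.81 and 7.60 in WT hosts and 7.37, 7.35, 6.92, 6.79 and 7.33 in Myd88-/- hosts. Again no Myd88-/- array reached the lowest WT array, and the difference was -0.59 ± 0.12 (SE, limma, adjusted p = 0.0341). The call of Map3k8 was lost when 1 of 6 of the 10 arrays was left out (WT arrays 1, 2 and 3 and Myd88-/- arrays 3, 4 and 5), with adjusted p up to 0.114. Myd88 differed by -0.75 ± 0.10 (limma, adjusted p = 0.00174), with means of 7.62 and 8.37.

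Among the sensors, Tlr2 and Tlr4 differed in opposite directions without passing the threshold. Tlr4 was 7.04, 6.87, 6.94, 6.92 and 6.72 in WT hosts and 7.18, 7.26, 7.40, 7.31 and 7.16 in Myd88-/- hosts. All 5 Myd88-/- arrays were above all 5 WT arrays, and the difference was 0.36 ± 0.08 (limma, adjusted p = 0.0505), with 0.31 for a second probe set. The gene was called after quantile normalization was repeated, with a trended, robust variance prior, and without WT array 1. Tlr2 was 11.13, 11.10, 10.98, 10.79 and 10.86 against 10.40, 10.52, 10.73, 10.77 and 10.72, so the lowest WT array and the highest Myd88-/- array lay next to each other. Its difference was -0.34 ± 0.10 (limma, adjusted p = 0.134).

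Irak2, a kinase that sustains signalling after Irak1, was 8.42, 8.86, 9.09, 8.07 and 8.83 in WT hosts and 8.07, 8.05, 7.62, 7.94 and 8.20 in Myd88-/- hosts. WT array 4 lay within the Myd88-/- range, and the difference was -0.68 ± 0.17 (limma, adjusted p = 0.0899). Irf7 differed by -0.56 ± 0.26 (limma, adjusted p = 0.404), with WT array 4 at 5.18 and the other WT arrays from 6.23 to 6.64. Without WT array 4, Irak2 and Irf7 were also called and the count of genes called rose from 3 to 5. Traf6 differed by -0.31 (limma, adjusted p = 0.288) and Cd36 by 0.32 (limma, adjusted p = 0.365).

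**Figure D2:**
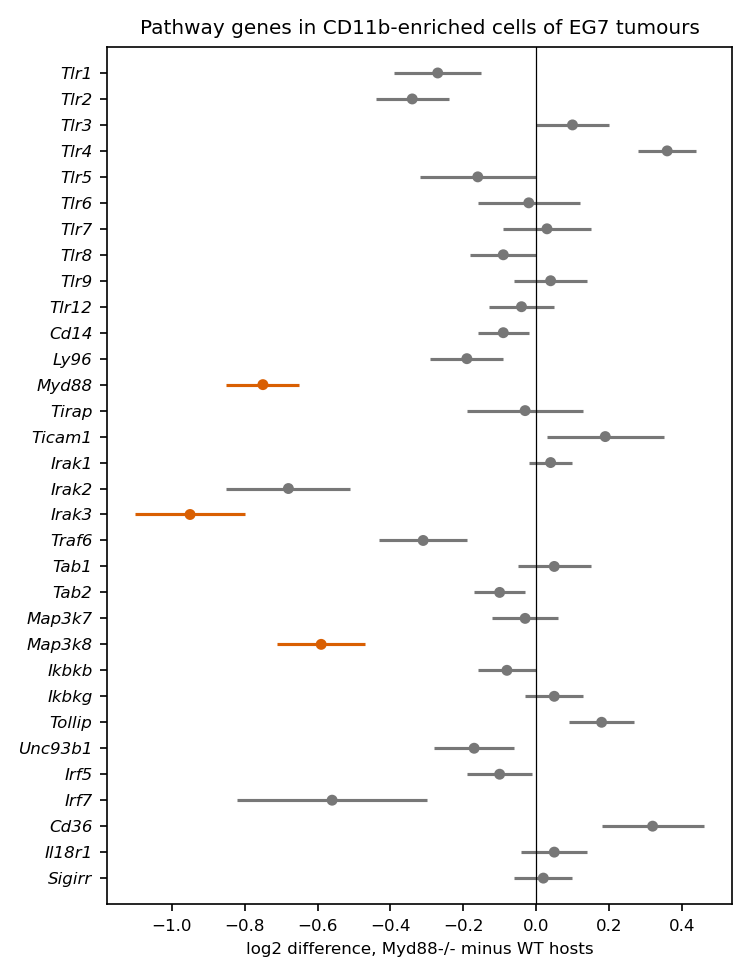
Log2 difference of each of the 32 genes, Myd88-/- minus WT hosts (5 arrays each), in CD11b-enriched cells of EG7 tumours. Points are limma estimates, lines are ± 1 SE, and orange marks adjusted p under 0.05. Irak3 (-0.95), Myd88 (-0.75) and Map3k8 (-0.59) are called, and Tlr4 lies farthest to the right at 0.36.

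Listed targets of NF-kB were lower in Myd88-/- hosts as well. The lists of further genes were chosen with earlier results of these data known. Their counts and medians, here and below, therefore describe the listed genes and are not independent support. Of all genes tested here, 1.22% were lower and 0.26% higher. Of 33 listed NF-kB targets and feedback genes, 21 were lower and 0 higher by limma, with a median of -0.63 against 0.01 over all genes. Il23a, a subunit of interleukin-23, differed by -4.27 ± 0.15 (limma, adjusted p = 5.1e-09). Tnf, tumour necrosis factor itself, differed by -1.38 ± 0.08 (limma, adjusted p = 3.46e-06). Nfkbiz, a nuclear partner of NF-kB, differed by -1.73 ± 0.12 (limma, adjusted p = 6.59e-06) and Gpr84, a receptor for medium-chain fatty acids, by -1.56 ± 0.14 (limma, adjusted p = 7.79e-05). Of 29 further pathway genes tested, 2 were lower, the kinase Ikbke (-0.46) and the NF-kB subunit Nfkb2 (-0.44), and 0 were higher. Of 13 interferon-stimulated genes, Usp18 alone was called, at -0.89 ± 0.17 (limma, adjusted p = 0.0164).

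The ranges of T-cell and neutrophil markers overlapped between these hosts. The mean of 6 T-cell markers, which EG7 cells also carry, was 6.28 to 6.91 in WT and 6.46 to 6.72 in Myd88-/- arrays, and 6 neutrophil markers averaged 7.92 to 9.72 and 7.96 to 9.47. The mean of 7 macrophage markers was 9.75 to 9.93 in WT and 9.52 to 9.69 in Myd88-/- arrays, without overlap. Of these 7, Ccr2 was called as lower, at -1.07 ± 0.19 (limma, adjusted p = 0.0122). Cd79b of the B-cell list was also called as lower, at -0.56 ± 0.12 (limma, adjusted p = 0.0349). The part of these markers in the differences was not tested. In bulk samples such as these, fewer cells of a type and less RNA per cell cannot be told apart.

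Between the sorted populations 20 of the 33 components were called, 18 of them with lower signals in population A. The comparison asks how the Ly6C+ MHCII- and Ly6C- MHCII+ cells of EG7 tumours differ, as a mean over the 4 host genotypes. By limma at adjusted p under 0.05, 18 of 33 genes were lower in A and 2 were higher, where 32.3% of 16524 genes were called, 21.3% being lower and 11.1% higher. The median over the 33 genes was -0.34 against 0.01 over all genes. 6 genes had no overlap between the 8 arrays of A and the 8 of C (Tlr1, Tlr3, Tlr8, Ly96, Ticam2 and Unc93b1), against 5.98% of all genes.

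The largest difference was that of Cd36, a scavenger receptor that works with Tlr2 and Tlr6 for some ligands. In population A it ranged from 5.28 over a median of 6.98 to 8.72, and in population C from 8.42 over 9.01 to 9.63. The lowest signal, on A_TNFR1KO array 2, was not above background. The overlap came from 1 A array of Myd88flox/flox;Tie2-Cre hosts, the one at 8.72. Cd36 was lower in A by a log2 difference of -1.91 ± 0.15 (limma, adjusted p = 1.23e-06), and by -1.81 with that array set to its background limit, an alternative added after the data were seen.

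The endosomal sensors were lower in A for 5 of 6 members measured, Tlr3, Tlr7, Tlr8, Tlr12 and Tlr13. Tlr8, a sensor of RNA breakdown products, ranged from 6.65 over a median of 7.29 to 8.39 in A and from 8.59 over 8.83 to 9.17 in C, without overlap, a difference of -1.55 ± 0.15 (limma, adjusted p = 4.53e-06). Tlr3, the sensor of double-stranded RNA, ranged from 5.10 to 6.06 in A, above background on 0 of 8 arrays, and from 6.08 to 6.63 in C. Its measured difference was -0.85 ± 0.09 (limma, adjusted p = 1.18e-05), and with A at the background limit it was at least 1.22-fold higher in C. Tlr7, a sensor of single-stranded RNA, differed by -1.05 ± 0.17 (limma, adjusted p = 0.000304), and A_TNFR1KO array 2 was the lowest of all at 5.55. The chaperone Unc93b1 ranged from 8.75 to 10.03 in A and from 10.07 to 10.41 in C. It differed by -0.87 ± 0.14 (limma, adjusted p = 0.000312). Tlr13 (-0.45) and Tlr12 (-0.41, above background on 0 arrays of A and 5 of C) were also called, and Tlr9 was not (-0.43 ± 0.18, limma, adjusted p = 0.088).

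The endotoxin receptor and its partners were lower in A together. Ly96, which binds endotoxin with Tlr4, ranged from 7.60 over a median of 8.29 to 9.22 in A and from 9.53 over 9.68 to 9.80 in C. The C arrays lay within a narrow band above all A arrays, and the difference was -1.25 ± 0.14 (limma, adjusted p = 1.41e-05). Tlr4 itself ranged from 6.02 to 7.14 in A and from 7.08 to 7.67 in C, a difference of -0.84 ± 0.11 (limma, adjusted p = 8.6e-05). Cd14, which delivers endotoxin to the receptor, differed by -1.08 ± 0.16 (limma, adjusted p = 0.000146). The adaptor Ticam2 was at 5.70 to 6.06 in A, where it was not above background, and at 6.12 to 6.62 in C, a measured difference of -0.58 ± 0.08 (limma, adjusted p = 0.000104) and at least 1.17-fold higher in C with A at the background limit.

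Of the other surface sensors, Tlr1 ranged from 7.21 to 8.57 in A and from 8.62 to 9.53 in C, a difference of -1.09 ± 0.17 (limma, adjusted p = 0.000199), and Tlr5 was also lower (-0.43). Tlr2, the partner of Tlr1 and Tlr6, gave -0.34 and Tlr6 gave -0.19, and neither was called. Downstream, the differences were smaller. Traf6 ranged from 6.58 to 7.18 in A and from 6.96 to 7.54 in C (-0.38 ± 0.08, limma, adjusted p = 0.00225), and Irak1 (-0.32), Irak2 (-0.31), Map3k8 (-0.35) and Tab1 (-0.23) were called as well. The kinase Ikbkb was higher in A, at 7.93 to 8.46 against 7.58 to 8.04 in C (0.35 ± 0.09, limma, adjusted p = 0.00912). Il18r1 was also called as higher (0.21), at signals below background in both populations, so no change in its level can be read from it.

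Myd88 itself was not called, with a difference of -0.01 (limma, 95% interval -0.29 to 0.28, adjusted p = 0.967). Irak3 gave -0.04, Irf7 0.06 and Tollip 0.01. Tirap (-0.04), Ticam1 (-0.14), Tab2 (0.11), Map3k7 (-0.13), Ikbkg (-0.18) and Sigirr (0.17) were not called either. After quantile normalization was repeated, 15 of the 33 genes were called, 12 lower and 3 higher, and 13 of them were shared. Irak1, Irak2, Map3k8, Tab1, Tlr13, Tlr5 and Il18r1 were then no longer called, while Tab2 and Tollip were called as higher, and the share of all called genes that were higher in A moved from 34.2% to 44.3%. The direction of Myd88 turned under that scaling, to 0.19.

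Of the 20 called genes, 15 kept their call in all 16 fits that left out 1 array. Tlr13 lost it without C_doubleKO array 1 or A_Myd88cKO array 1 (adjusted p up to 0.0513), and Tab1 without C_WT array 1, C_Myd88cKO array 1, C_doubleKO array 1, A_TNFR1KO array 2 or A_Myd88cKO array 2 (up to 0.07). Il18r1 kept it in 6 fits, those without C_WT array 2, C_TNFR1KO array 2, A_TNFR1KO array 2, A_doubleKO array 2 or either A_WT array, with adjusted p up to 0.0739. Irak2 kept it in 5, those without C_WT array 2, C_doubleKO array 2, A_WT array 1, A_Myd88cKO array 2 or A_doubleKO array 2, with adjusted p up to 0.119. Map3k8 kept it in 5, those without C_TNFR1KO array 1, C_doubleKO array 2, A_WT array 1, A_TNFR1KO array 1 or A_doubleKO array 2, with adjusted p up to 0.0858.

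**Figure D3:**
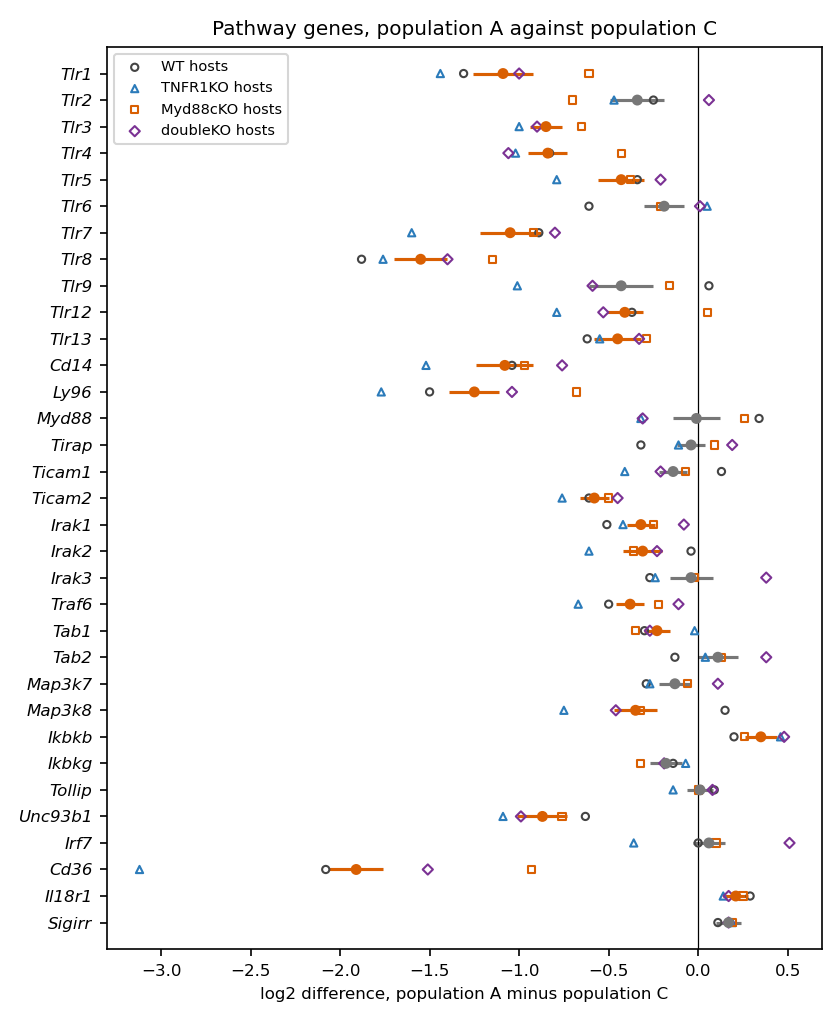
Log2 difference of each of the 33 genes, population A minus population C. Filled points with lines are the mean of 4 host genotypes ± 1 SE (limma, orange where adjusted p is under 0.05), and open markers are the differences within each genotype (cKO, Myd88flox/flox;Tie2-Cre; doubleKO, TNFR1-/-;Myd88flox/flox;Tie2-Cre). Cd36 runs from -3.12 in TNFR1-/- hosts, where 1 of the 2 A arrays was not above background, to -0.93 in Myd88flox/flox;Tie2-Cre hosts.

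Within single genotypes, 10 of the 33 genes were lower in A in WT hosts (limma, 9.92% of all genes were lower), 13 in TNFR1-/- hosts (10.1%), 0 in Myd88flox/flox;Tie2-Cre hosts (0.938%) and 5 in hosts with both changes (3.72%). In Myd88flox/flox;Tie2-Cre hosts 10 of the 33 had an unadjusted p under 0.05. The share of all genes at that threshold is not given, here or below. Such counts are therefore not comparable with the shares called and show no excess among these genes. The 5 genes called in hosts with both changes were Tlr3, Tlr4, Tlr8, Ly96 and Cd36. Cd36 gave -2.08 in WT hosts (limma, adjusted p = 0.00119), -3.12 in TNFR1-/- hosts (adjusted p = 5.95e-05, and -2.73 with the array below background at its limit), -0.93 in Myd88flox/flox;Tie2-Cre hosts (adjusted p = 0.143) and -1.51 in hosts with both changes (adjusted p = 0.0108). For Ly96 the same order gave -1.50, -1.77, -0.68 and -1.04, and for Tlr8 -1.88, -1.76, -1.15 and -1.40. The sign was negative in all 4 genotypes for these genes.

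Markers of other cells also differed between A and C. Of 7 neutrophil markers tested 6 were higher in A, with list means of 6.04 to 7.13 against 5.01 to 5.42, and S100a8 and Camp were not above background. Of 7 markers of eosinophils, basophils and mast cells 6 were higher, at 5.75 to 7.01 against 5.14 to 5.45. Of these 7, Epx, Mcpt8 and Ms4a2 were above background on no sorted array, and Gata2 on 3 arrays of A and 0 of C. Of 4 fibroblast and 4 endothelial markers 3 each were higher. Of 8 macrophage and monocyte markers 4 were lower, C1qa (-2.61), Mertk (-2.08), Cd68 (-1.17) and Csf1r (-0.78), and 1 was higher, Ly6c2 (3.20), whose family the sort used. Their mean was 9.23 to 10.14 in A and 9.66 to 10.26 in C. Of 6 T-cell markers 3 were higher in A, with list means of 5.69 to 7.56 against 5.95 to 6.65. Of 5 dendritic-cell markers 2 were lower, Ccr7 (-2.10) and Flt3 (-0.46), at 5.71 to 6.03 against 5.95 to 6.73. Of 3 NK-cell markers 1 was lower and 1 higher, at 5.06 to 5.58 against 5.03 to 5.51, and of 2 B-cell markers 1 was lower, at 4.90 to 5.27 against 4.96 to 6.31. Emcn, Pdgfrb, Cd2, Zbtb46, Xcr1, Ncr1, Eomes, Cd79a and Ms4a1 of these lists were also above background on no sorted array. For a marker that was above background on no array, no change in level can be read from a call. The part of these cells in the differences was not tested.

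The wider lists are set against all genes tested, of which 21.3% were lower in A and 11.1% higher. Of 30 further pathway genes 10 were lower in A and 3 higher, among them Hsp90b1, the chaperone of most Toll-like receptors (-0.99), Cd180, a relative of Tlr4 on B cells and myeloid cells (-1.03), and Il18rap, a chain of the interleukin-18 receptor (0.87, above background on 4 arrays of A and 0 of C). Of 33 NF-kB targets 15 were lower and 2 higher, with a median of -0.32. The chemokine Cxcl1 gave -1.91, with 1 of 8 A arrays above background, and Il10 gave -1.29, with 4 of 8, while the chemokine Ccl3 was higher by 0.33. Of 13 interferon-stimulated genes 1 was lower and 1 higher.

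Deletion of Myd88 by Tie2-Cre was then compared within each population, as the mean of 2 differences: Myd88flox/flox;Tie2-Cre minus WT hosts, and hosts with both changes minus TNFR1-/- hosts. In population A, Myd88 was lower and Cd36 and Ly96 were higher. These were the 3 of 33 genes called by limma, where 4.67% of all genes were called, 4.19% higher and 0.478% lower. The median over the 33 was 0.05 against 0.01 over all genes, and 3 of the 33 (Myd88, Cd36 and Traf6) did not overlap between the groups, against 7.38% of all genes. Both counts include Myd88, the deleted gene.

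Cd36 in population A was 6.85 and 6.68 in WT hosts and 6.13 and 5.28 in TNFR1-/- hosts. With Myd88 deleted it was 8.35 and 8.72 alone and 7.45 and 7.11 together with the loss of TNFR1. All 4 arrays with the deletion lay above all 4 without it, and the difference was 1.67 ± 0.22 (limma, adjusted p = 0.00132). The TNFR1-/- array at 5.28 was not above background, and with it at its limit the difference was 1.48 ± 0.19 (limma, adjusted p = 0.00112). Against the WT arrays, which both comparisons share, the deletion alone gave 1.77 ± 0.31 (limma, adjusted p = 0.0125) and both changes together gave 0.52 ± 0.31 (adjusted p = 0.321).

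Ly96 was 7.97 and 8.35 in WT, 8.22 and 7.60 in TNFR1-/-, 8.75 and 9.22 in Myd88flox/flox;Tie2-Cre and 8.17 and 9.04 in doubly changed hosts. The groups overlapped through 1 array of the last genotype. The difference was 0.76 ± 0.19 (limma, adjusted p = 0.0394). It was called in 6 of the 16 fits that left out 1 array, with adjusted p up to 0.155, and not after repeated quantile normalization (0.51, adjusted p = 0.247). The fits that lost it left out A_WT array 1, A_TNFR1KO array 2, A_Myd88cKO array 2, A_doubleKO array 2, or any array of C other than the WT ones.

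Other sensors and kinases of population A did not pass. Tlr8 differed by 0.70 ± 0.21 (limma, adjusted p = 0.0701) and Traf6 by 0.41 ± 0.11 (limma, adjusted p = 0.0528), with 7.07 to 7.18 on the 4 arrays with the deletion and 6.58 to 6.89 without it. The pair of WT arrays of A correlated less well than the pairs of the other groups (0.925 against 0.963 to 0.987 over genes). Traf6 was called without either C_WT array, and Tlr8 without A_WT array 2 or A_Myd88cKO array 1. Map3k8 was called as lower without A_TNFR1KO array 2. Without A_WT array 1 the number of genes called rose from 3 to 7, adding Irak1, Map3k7, Tab2, Tlr4 and Traf6 as higher and losing Ly96, and the count over all genes rose from 772 to 2359. Macrophage markers averaged 9.86 to 10.14 in the Myd88flox/flox;Tie2-Cre arrays of A and 9.23 to 9.71 in the WT arrays. Endothelial markers averaged 6.72 to 7.06 and 6.12 to 6.40 in the same groups, 5.97 to 6.21 with both changes and 5.71 to 5.82 in TNFR1-/- hosts. T-cell markers were highest with both changes, at 7.42 to 7.56. By limma the deletion called as higher in A 4 of 6 T-cell markers, 2 of 8 macrophage markers, 2 of 4 fibroblast markers and 1 of 4 endothelial markers (Cdh5, 1.02). The part of these in the rise of Cd36, which endothelium also makes, was not tested.

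In population C, only Myd88, the deleted gene, was called among the 33 genes, at -1.76 ± 0.19 (limma, adjusted p = 0.0036), where 0.0182% of all genes were called. Without C_TNFR1KO array 2 its adjusted p was 0.0537. The median over the 33 was -0.13 against 0.01, and 26 of the 33 estimates were negative. Myd88 and Irf7, 2 of the 33, did not overlap between the groups, against 3.48% of all genes. Irf7 was 8.45 and 8.27 in WT, 8.52 and 8.83 in TNFR1-/-, 7.80 and 7.68 in Myd88flox/flox;Tie2-Cre and 7.93 and 7.57 in doubly changed hosts. All 4 arrays with the deletion lay below the 4 without it, at -0.77 ± 0.13 (limma, adjusted p = 0.125). Irf7 was called when only the 4 groups of C were fitted, and without C_doubleKO array 1. In population A it gave -0.29 ± 0.13 (limma, adjusted p = 0.219).

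The difference between the populations in their response to Myd88 deletion was tested directly, and 0 of the 33 genes were called by limma, where 0% of all genes were called. At an unadjusted p under 0.05 there were 5 of 33. Cd36 gave a difference of 1.38 ± 0.31 (95% interval 0.72 to 2.04, limma, adjusted p = 0.225), Ly96 gave 0.78 ± 0.27 (adjusted p = 0.457) and Irf7 0.48 (adjusted p = 0.483). The median over the 33 was 0.21 against 0.02, with 27 positive.

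**Figure D4:**
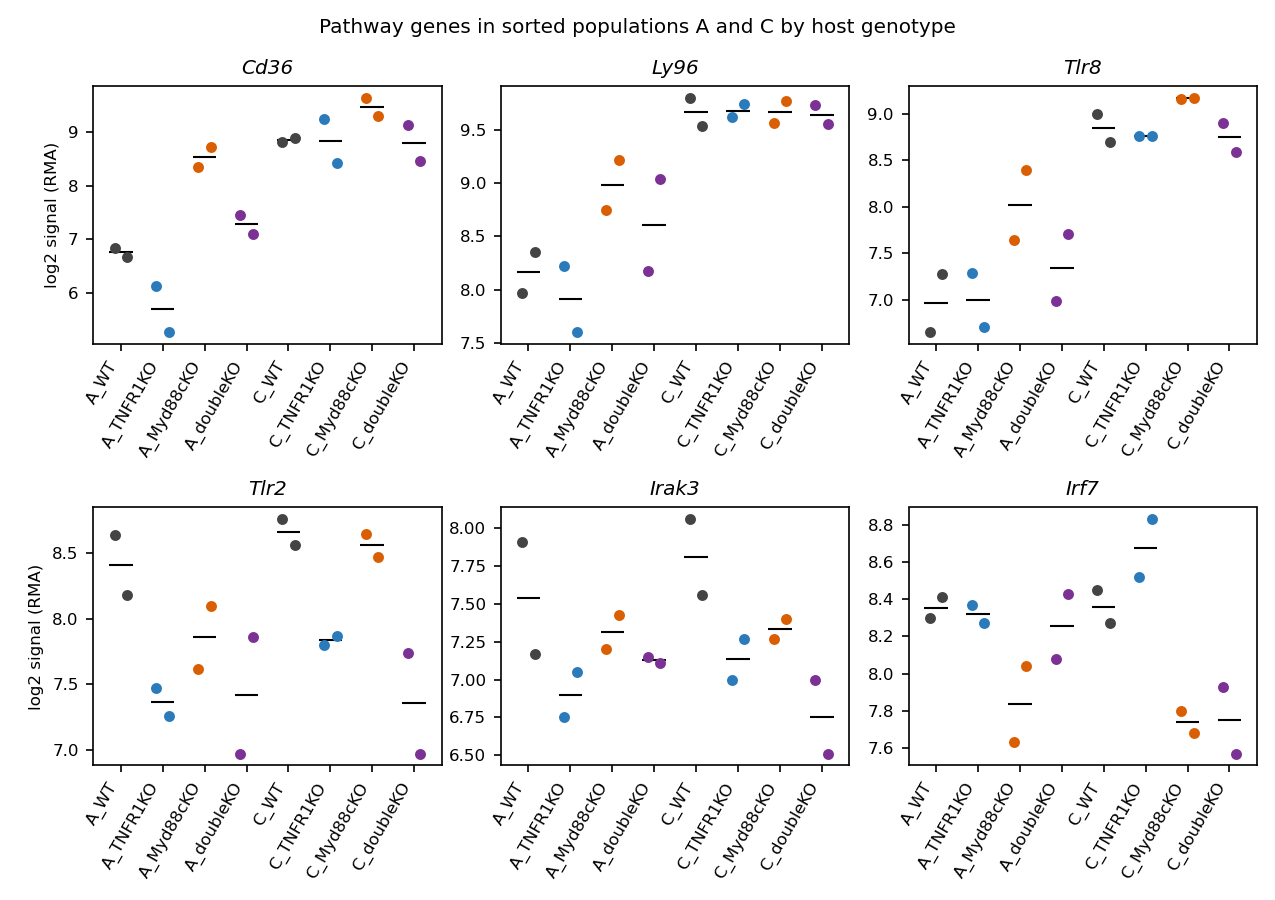
Log2 RMA signal of Cd36, Ly96, Tlr8, Tlr2, Irak3 and Irf7 in the 8 sorted groups (cKO, Myd88flox/flox;Tie2-Cre; doubleKO, TNFR1-/-;Myd88flox/flox;Tie2-Cre), with points for arrays and bars for means of 2. Cd36 in population A lies at 5.28 to 6.85 with Myd88 intact and at 7.11 to 8.72 with Myd88 deleted, and each panel has its own scale.

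Of the listed NF-kB targets in population A, 4 of 33 were lower with Myd88 deleted and 1 was higher. Nfkbiz gave -1.21 (limma, adjusted p = 0.0068) and Nfkbia, which encodes the inhibitor of NF-kB, -0.98 (adjusted p = 0.0121), while Tnfaip3 (-0.80) was also lower and Nos2 was higher (0.92). The fourth lower call was Il6, whose signal was above background on 1 of the 8 arrays, so no change in its level can be read from it. In population C, 1 of 33 was called, Il10 at -1.18 (limma, adjusted p = 0.0291). Of 30 further pathway genes 1 was called in A, Hsp90b1 at 0.91 (limma, adjusted p = 0.00926), and 0 in C, where 2 had an unadjusted p under 0.05. Of 13 interferon-stimulated genes 0 were called in either population by limma, with 1 in A and 5 in C at an unadjusted p under 0.05.

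Loss of TNFR1 was compared in the same way, as the mean of TNFR1-/- minus WT hosts and of hosts with both changes minus Myd88flox/flox;Tie2-Cre hosts. In population C, Tlr2 was lower, and it was the 1 gene of 33 called by limma, where 1.09% of all genes were called, 0.617% lower. Tlr2 was 8.76 and 8.56 in WT and 8.65 and 8.47 in Myd88flox/flox;Tie2-Cre hosts, against 7.80 and 7.87 in TNFR1-/- and 7.74 and 6.97 in doubly changed hosts. The 4 arrays without TNFR1 lay below the 4 with it, and the difference was -1.01 ± 0.21 (limma, adjusted p = 0.0279). The call was lost in 7 of the 16 fits that left out 1 array, those without any array of C except C_doubleKO array 1, with adjusted p up to 0.152. Tlr2 and Tlr7, 2 of the 33, did not overlap between the groups, against 6.38% of all genes. Markers of other cells were called in the same comparison, all higher without TNFR1: Ccr7 of the dendritic list by 1.88 (1 of 5 markers tested), Klrk1 of the NK list by 1.27 (1 of 3) and Cd79b of the B-cell list by 0.81 (1 of 2). Klrk1 was above background only on the C arrays without TNFR1. The means of the dendritic list were 6.56 to 6.73 without TNFR1 and 5.95 to 6.13 with it, those of the NK list 5.16 to 5.51 and 5.03 to 5.23, and those of the B-cell list 5.53 to 6.31 and 4.96 to 5.39. Their part in the difference of Tlr2 was not tested.

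Irak3 in C was 8.06 and 7.56 in WT and 7.27 and 7.40 in Myd88flox/flox;Tie2-Cre hosts, and the 4 arrays without TNFR1 ranged from 6.51 to 7.27. The WT arrays were the highest and the groups met at 7.27, with a difference of -0.63 ± 0.17 (limma, adjusted p = 0.146). Irak3 was called after repeated quantile normalization, when only the groups of C were fitted, and without either A_WT array. Myd88 in C gave 0.62 ± 0.19 (limma, adjusted p = 0.214).

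In population A, 0 of 33 genes were called for loss of TNFR1 by limma, where 0.182% of all genes were called, and 9 of the 33 had an unadjusted p under 0.05. Tlr12 and Irak3, 2 of the 33, did not overlap between the groups, against 2.52% of all genes. Cd36 gave -1.16 ± 0.22 (limma, adjusted p = 0.0554), with the opposite sign to Myd88 deletion, and -0.96 ± 0.19 with the array below background at its limit (limma, adjusted p = 0.0614). Of 4 endothelial markers 2 were called as lower by limma in the same comparison, Cdh5 (measured -1.55) and Emcn (-0.86). Cdh5 was above background on 4 of 4 A arrays with TNFR1 and 0 of 4 without it, so it was at least 2.16-fold higher with TNFR1. Emcn was below background on all 8 arrays, so no change in its level can be read from it. The endothelial list averaged 5.71 to 6.21 without TNFR1 and 6.12 to 7.06 with it, and its part in the difference of Cd36 was not tested. Cd36 was called without C_TNFR1KO array 1 or 2, A_WT array 2, A_TNFR1KO array 1 or A_doubleKO array 2, and the count of 33 rose to 3 without the last (Cd36, Tlr2 and Tlr7) and to 2 without A_WT array 2 (Cd36 and Tlr2). Tlr2 gave -0.75 ± 0.21 (limma, adjusted p = 0.142). Its A arrays were 8.64 and 8.18 in WT, 7.62 and 8.10 in Myd88flox/flox;Tie2-Cre, 7.47 and 7.26 in TNFR1-/- and 6.97 and 7.86 in doubly changed hosts. The direct test of A against C for this effect called 0 of 33 genes by limma (0.103% of all genes called, 5 of 33 at an unadjusted p under 0.05). For Tlr2 it gave 0.27 ± 0.29, with a 95% interval of -0.35 to 0.89.

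The listed NF-kB targets gave 6 lower and 1 higher of 33 in C after loss of TNFR1, among them the acute-phase gene Saa3 (-3.27), Acod1, the enzyme that makes itaconate (-1.95), and Clec4e (-1.77). Gpr84 was above background on 4 of 4 C arrays with TNFR1 and 0 of 4 without it, so it was at least 3.37-fold higher with TNFR1. The 1 higher call was Il6, which was above background on 1 of the 8 arrays, so no change in its level can be read from it. Usp18, of the interferon list, was higher in C by 0.86 (limma, adjusted p = 0.0203). In A, 1 of 33 targets was called, Gpr84 at -1.56, with 2 of 4 arrays without TNFR1 above background.

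Hosts with both changes were also set against WT hosts alone. In population A, Myd88 was called among the 33 genes (-1.79 ± 0.27, limma, adjusted p = 0.0101), where 5.75% of all genes were called, and without A_doubleKO array 1 its adjusted p was 0.106. The T-cell markers Cd3g (1.75), Cd3e (1.35), Lat (1.19) and Thy1 (1.03) and the neutrophil marker Retnlg (1.58) were called as higher in A. The NK marker Klrb1c was called as lower (-0.88), with 2 WT arrays of A above background and 0 with both changes. Of the listed NF-kB targets, Gpr84 (-1.22), Tnf (-1.89), Nfkbiz (-1.33) and Nfkbia (-1.07) were called as lower in A. Tlr2 missed the threshold (limma, adjusted p = 0.058). Without A_doubleKO array 2 the count was 4 (Myd88, Irak2, Tlr2 and Tlr9), without A_WT array 1 it was 4 (Myd88 with Irak1, Map3k7 and Tab2), and without A_WT array 2 it was 2 (Myd88 and Tlr2). In population C, 0 of 33 were called by limma, where 0.309% of all genes were called, and 4 of 33 had an unadjusted p under 0.05. Tlr2 gave -1.30 ± 0.29 (limma, adjusted p = 0.103), Irak3 -1.06 ± 0.24 (adjusted p = 0.125) and Myd88 -1.13 ± 0.27 (adjusted p = 0.129). Saa3 (-3.67) and Acod1 (-3.19) were among the NF-kB targets called as lower in C, and Ccr7 of the dendritic list was called as higher (1.90). The part of the called markers of other cells in these differences was not tested in A or C. In each of 5 fits 1 of the 33 was called: Myd88 without C_doubleKO array 1, Irak3 without either A_WT array, and Tlr2 without either A_doubleKO array.

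Between the tumour models, 1 of the 32 components was called. The comparison addresses which pathways differ between macrophages of neuroblastoma and of EG7 thymoma. By the probe set used, Map3k7 was lower in neuroblastoma, at 5.90, 6.45 and 6.31 against 7.08, 6.81 and 7.15 in EG7 tumours, without overlap. By limma 1 of 32 genes was lower and 0 higher, where 14.7% of 12576 genes were called, 9.49% higher and 5.22% lower. The difference of Map3k7 was -0.79 ± 0.20 (limma, adjusted p = 0.0424). Its other probe sets gave -0.73, -0.06, 0.34 and 0.38, and the mean over its probe sets was not called (-0.17). The one that gave 0.34 was the brightest in this experiment, with means of 7.02 in neuroblastoma and 6.68 in EG7 tumours. The probe set used had means of 6.22 and 7.01, and was picked with the arrays of the Myd88 experiment included. The call was lost when any array other than NB_model array 2 was left out, with adjusted p up to 0.159, while Tlr12 was called as higher without NB_model array 1 and Tlr3 without EG7_model array 3. The median over the 32 genes was -0.13 against -0.01 over all genes, and 6 of the 32 did not overlap between the models (Tlr2, Tlr12, Irak3, Map3k7, Map3k8 and Sigirr), against 36.1% of all genes.

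The 3 neuroblastoma arrays differed among themselves. Array 2 was the highest of the 3 for 20 of 32 genes and array 3 the lowest for 20 of 32. The like shares over all genes are not given, so this is not a trait shown for these genes in particular. Irf7 was 6.13, 10.26 and 6.90 in neuroblastoma and 6.75, 7.38 and 6.59 in EG7 tumours, so array 2 stood far above the rest, and the difference was 0.86 ± 1.01 (limma, adjusted p = 0.622). The mean of 13 interferon-stimulated genes ranged from 5.74 to 9.57 over the neuroblastoma arrays and from 7.05 to 7.19 over the EG7 arrays. Traf6 was 5.42, 6.76 and 5.43 in neuroblastoma and 6.81, 6.85 and 6.75 in EG7 tumours. Array 2 alone lay near the EG7 level, and the difference was -0.93 ± 0.37 (limma, adjusted p = 0.145). Other probe sets of Traf6 gave -0.44 and -0.05.

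Tlr2 was 10.21, 11.18 and 10.71 in neuroblastoma and 11.65, 11.66 and 11.50 in EG7 tumours, without overlap (-0.90 ± 0.25, limma, adjusted p = 0.0614). Irak3 was 6.81, 7.45 and 6.09 against 7.53, 7.76 and 7.61, also without overlap (-0.85 ± 0.33, limma, adjusted p = 0.144). A second probe set of Irak3 gave -0.43. Without neuroblastoma array 2, 5 genes were lower, where 19.5% of 12883 genes were called, 901 of them lower and 1608 higher. They were Traf6 (-1.38), Tlr2 (-1.14), Irak3 (-1.18), Tlr1 (-0.80) and Map3k7 (-0.91). For each of them array 2 was the highest neuroblastoma array, so leaving it out could only lower these differences. The 6 fits that left out 1 array called 0 to 5 members, and this fit gave the highest count. Over genes, array 2 correlated with its group at 0.954, against 0.955 and 0.962 for arrays 1 and 3.

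**Figure D5:**
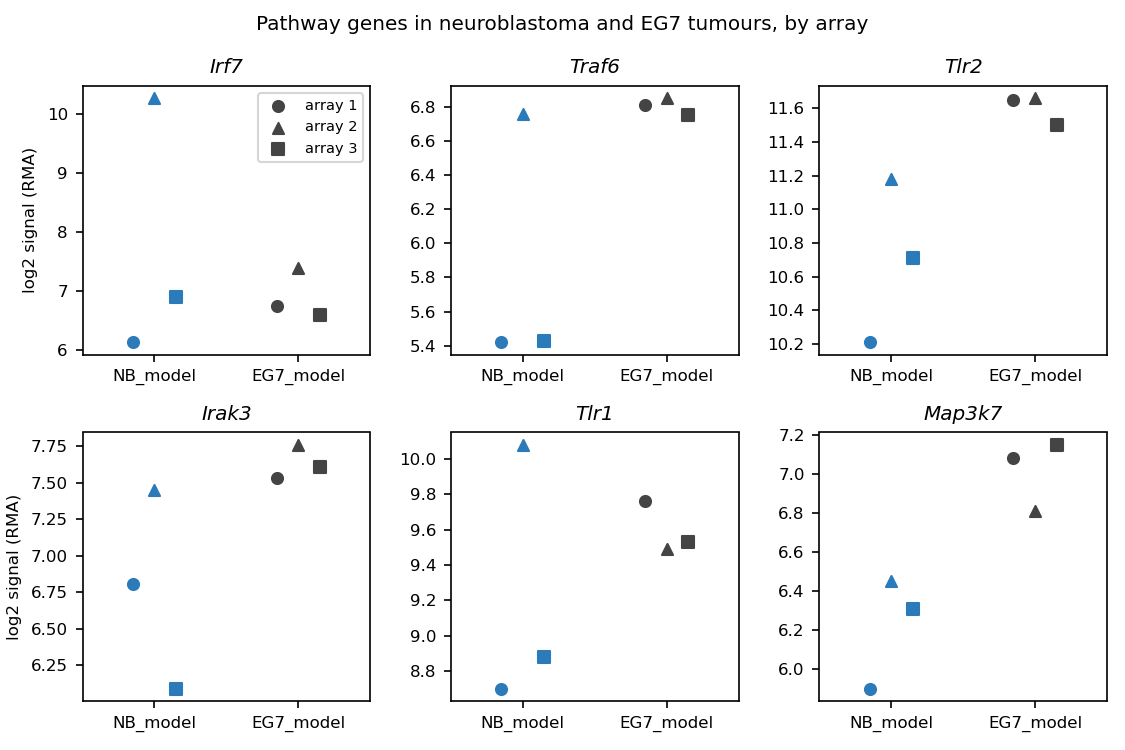
Log2 RMA signal of Irf7, Traf6, Tlr2, Irak3, Tlr1 and Map3k7 on the 3 neuroblastoma arrays (NB_model) and 3 EG7 arrays (EG7_model), with marker shape for the array number. Neuroblastoma array 2 (triangle) reads 10.26 for Irf7 and 6.76 for Traf6, apart from the other 2 arrays of its group, and each panel has its own scale.

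Other sensors were not called. Tlr7 gave 0.94 ± 0.52 (limma, adjusted p = 0.284) and Tlr3 0.90 ± 0.41 (limma, adjusted p = 0.193), with 0.15 for a second probe set of Tlr3. Myd88 was 9.25, 10.15 and 8.86 in neuroblastoma and 9.59, 9.72 and 9.28 in EG7 tumours, a difference of -0.11 ± 0.34 (limma, adjusted p = 0.862). Of 30 further pathway genes, 32 NF-kB targets and 13 interferon-stimulated genes, 0 were called by limma, with 2, 2 and 0 at an unadjusted p under 0.05.

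Cell markers moved with the tumour model. 5 of 6 T-cell markers were lower in neuroblastoma, with list means of 4.74 to 6.45 against 8.65 to 9.05, and 5 of 6 neuroblastoma markers were higher, at 7.42 to 8.10 against 3.74 to 3.84. Endothelial markers were higher for 3 of 4, at 8.49 to 9.21 against 6.73 to 7.29. Markers of 4 other lists were called by limma as well, with directions not given here. They were 1 macrophage, 1 neutrophil and 1 fibroblast marker, and 2 markers of eosinophils, basophils and mast cells. Macrophage markers averaged 10.01 to 10.63 in neuroblastoma and 10.53 to 10.76 in EG7 tumours, and B-cell markers 3.73 to 7.43 and 3.91 to 4.21. Their part in the differences was not tested. After repeated quantile normalization the median of all genes moved to -0.12, the share of higher genes among those called fell from 64.5% to 49.7%, and Map3k7 and Sigirr were called.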

How the data were processed

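The log2 signals per probe set were deposited by the authors. Per the submitters' processing notes they come from Expression Console 1.1 (Affymetrix) with RMA, which sets arrays to a common distribution, so a global change in RNA content would be removed. The sources used here do not say which arrays were normalized as 1 set, and the experiments were tested apart. Arrays give no depth, and their number limits the precision.

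A gene was tested where its signal passed the 40th percentile of the array's probe sets on enough arrays to fill the smallest group (3, 5 or 2). Tests used limma 3.58.1 (lmFit, eBayes; R 4.3.3), were two-sided, and were adjusted by Benjamini-Hochberg over all genes tested, with calls at adjusted p under 0.05. A single fit covered the sorted arrays (8 groups of 2, residual degrees of freedom 8). Differences are first minus second group, ± SE. Counts at an unadjusted p under 0.05 are given without the share of all genes at that threshold. Named in full are Myd88, the called members of smallest adjusted p, and the nearest members that were not called or did not overlap. Members and lists were chosen with earlier results of these data known. The steps were tested on simulated data. Alternatives were no filter, the mean of probe sets, repeated quantile normalization, a trended prior, a replicate block, own groups only, and leaving out each array. A fit that leaves 1 array in a group assumes that it varies like the other groups. A fit without the WT arrays and one with Cd36 raised to the background limit were added after seeing the data. A bound (at least N-fold) sets each array of the dim side to the higher of its signal and its background limit.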

Additional observations from a re-analysis of the deposited data

Results flagged for a closer look

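In groups of 5 arrays, a gene was picked out where 1 array stood apart from the others by most of the group's range. 3 of 64 such groups met that criterion, and chance alone picks out about 1 in 20. Tlr1 on EG7_WT array 4 was 8.14, below the other WT arrays at 8.65 to 8.71 (gap over range 0.89). Irf7 on the same array was 5.18, below 6.23 to 6.64 (0.72). Irf7 on Myd88-/- array 3 was 5.04, below 5.78 to 5.89 (0.87).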

How the results depend on the processing

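Myd88 was lower with Myd88 deleted in every alternative run for the Myd88-/- hosts and for both sorted populations, and Cd36 was higher in population A in each one. The members called for neuroblastoma against EG7 were 0 with the mean of probe sets, 2 after repeated quantile normalization and 0 with the replicate block. Repeated quantile normalization called 1 member for TNFR1 loss in A, 2 for TNFR1 loss in C, 3 for both changes in A and 1 in C. Fits of the groups compared alone called 2 for Myd88 deletion in C, 2 for TNFR1 loss in C, 0 for both changes in A and 1 in C. Myd88 changed sign after quantile normalization for A against C (0.19) and for TNFR1 loss in A (-0.05). Leaving out 1 array gave 0 to 5 members for the tumour models, 2 to 5 for Myd88-/- hosts, 15 to 22 for A against C, 2 to 7 and 0 to 2 for Myd88 deletion in A and C, 0 to 3 and 0 to 2 for TNFR1 loss, and 0 to 4 and 0 to 1 for both changes. Over the same fits the Myd88 difference ran from -0.48 to 0.17 between models, -0.11 to 0.09 for A against C, -0.13 to 0.14 for TNFR1 loss in A and -0.24 to 0.16 for the population difference in Myd88 deletion. Over all genes, quantile normalization moved the calls for Myd88 deletion in A from 772 to 509 and for TNFR1 loss in A from 30 to 122. Fits of the groups compared alone gave 37 and 0 for these, 31 (from 3) for Myd88 deletion in C, 466 (from 180) for TNFR1 loss in C, and 0 (from 950) and 135 (from 51) for both changes in A and C. Leaving out 1 array moved them over 663 to 2509 for the models, 86 to 276 for Myd88-/- hosts, 153 to 2359 and 0 to 18 for Myd88 deletion in A and C, 3 to 700 and 72 to 248 for TNFR1 loss, 2 to 2341 and 7 to 69 for both changes, and 0 to 15 and 8 to 52 for the population differences. The share of called genes that were higher went from 89.8% to 70.1% for Myd88 deletion in A, 75.3% to 59.7% for both changes in A and 56.9% to 40.7% in C after quantile normalization. Same-numbered arrays did not all deviate together (correlations of -0.05 to 0.22, -0.25 to 0.23 and -0.50 to 0.37 in the 3 experiments), so they are taken to share only a number. The replicate block gave 1 member for TNFR1 loss in A (Cd36) and 12 genes in all, and ended the calls of Map3k7 (adjusted p = 0.0929), Map3k8 (0.0775) and, for A against C, Irak2 (0.0554). Without the WT arrays, an alternative chosen after seeing the data, Il18r1 (0.0539) and Tab1 (0.0569) were not called for A against C. Cd36 set to the background limit where it lay below it, also added after seeing the data, changed no count of members called in the sorted populations. Where a call moved, the cause was not tested. The limits are the 2 or 3 arrays of most groups, signals near background for Tlr12, Tirap, Sigirr and Il18r1, probe sets that differ between the arrays, and markers of other cells that differ between groups.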

Other observations

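On the sorted arrays, single arrays tended to be high or low for many of the 33 genes at once. Of the 8 arrays of population C, WT array 1 was the highest for 16 genes and array 2 of the hosts with both changes was the lowest for 15. Of the 8 arrays of population A, WT array 1 was the highest for 13 genes, array 2 of the Myd88flox/flox;Tie2-Cre hosts was the highest for 12, and array 2 of the TNFR1-/- hosts was the lowest for 10. How often the same arrays were highest or lowest over all genes is not given. These counts therefore show no trait particular to the 33 genes.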
